A study of Homo sapiens with 36 samples.

Results

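Matrix metalloproteinases (MMPs) and tissue inhibitors of metalloproteinases (TIMPs) were followed across MEIS1 and MEIS2 overexpression and knockout in human neural stem cells (hNSC). The members were chosen by name: MMP2, MMP14, MMP15, MMP16, MMP17, MMP19, MMP24, TIMP1, TIMP2 and TIMP3. These are 10 of the 28516 gene symbols in the count matrix, and all 10 passed the filter of at least 10 counts over the 36 libraries.

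MMPs are zinc-dependent endopeptidases that cut collagens, laminins, proteoglycans and many cell surface proteins. They are made as inactive proenzymes, and most act at or near the cell surface. TIMPs bind the active site of MMPs and block it, and TIMP2 can also hold proMMP2 at the cell surface, where the membrane-type enzyme MMP14 activates it. In the nervous system, MMPs and TIMPs are known for remodelling of the matrix around progenitors, migrating neuroblasts, growing neurites and synapses.

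The libraries came from poly-A RNA of commercially available hNSC, harvested 48 h after lentiviral transduction, with 6 libraries in each of 6 groups. MEIS1-OE and MEIS2-OE received CRISPR-activation, in which a Cas9 without cutting activity is guided to the promoter together with activation domains, and ctrl-OE received that system with a non-targeting guide RNA. The paper lists a single activation guide RNA for either gene, and effects of these guide RNAs at other sites were not tested here. MEIS1-KO and MEIS2-KO received cutting Cas9 with a mixture of guide RNAs for the gene, and ctrl-KO received cutting Cas9 with a non-targeting guide RNA. All 36 libraries thus carry lentivirus, and no group was left untransduced. The cells were transduced populations and not clones, and the activation system was delivered by several viruses together whereas the knockout system came on a single vector. The labels do not state whether replicates were separate cultures, so the p-values measure the spread between these libraries.

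The depth was 15429985 to 22940493 counts per library, with a median of 20324720. MEIS1 mRNA averaged 310 CPM (counts scaled to the library's TMM-adjusted total) in MEIS1-OE against 17.8 CPM in ctrl-OE, and 8.96 CPM in MEIS1-KO against 25.7 CPM in ctrl-KO. MEIS2 mRNA averaged 824 CPM in MEIS2-OE against 22.6 CPM in ctrl-OE, and 12.1 CPM in MEIS2-KO against 25.8 CPM in ctrl-KO. The knockouts therefore left part of the mRNA. All 8 neural stem cell markers were tested, and their sum was 2930 to 3799 CPM in ctrl-OE and 4334 to 4846 CPM in ctrl-KO. NES, which encodes nestin, averaged 939 and 1518 CPM there. The sums were 32.4 to 36.6 and 52.3 to 64.0 CPM for 5 neuronal markers, of which 4 were tested, and 2.08 to 2.70 and 4.09 to 5.59 CPM for 4 astrocyte markers. The neuronal sum was mostly SYT1, with 32.3 and 52.2 CPM, and the astrocyte sum mostly S100B, with 1.77 and 3.50 CPM, while STMN2 and GFAP lay under 1 CPM in every control library.

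The expression level of the family was set by 3 genes. Per kilobase of transcript, which allows levels to be compared between genes, TIMP1 was the highest member in ctrl-OE with 171 CPM per kb, followed by MMP2 with 124 and TIMP2 with 40.1 CPM per kb. In ctrl-KO the order was MMP2 with 175 to 211, TIMP1 with 81.2 to 107 and TIMP2 with 47.3 to 48.5 CPM per kb over the 6 libraries. The ranges of the libraries did not overlap between these neighbours in the order in any of the 6 groups. TIMP1 ranked above MMP2 in the 3 groups with CRISPR-activation, and MMP2 above TIMP1 in the 3 groups with cutting Cas9.

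The other members were far lower. In ctrl-OE, MMP15 reached 6.54, MMP19 2.22, MMP16 1.64 and TIMP3 1.01 CPM per kb. MMP17, MMP14 and MMP24 followed with 0.621, 0.321 and 0.252 CPM per kb, and their ranges overlapped from each to the next, as did those of TIMP3 and MMP17. In ctrl-KO, MMP19 stood in the ninth place with 0.349 CPM per kb, where its range overlapped with that of MMP14. MMP24 was the lowest member in every group, with 3 to 30 counts per library.

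MMP2 alone made up 91.4% ± 0.632 (SD, n = 6) of the summed level of the 7 MMPs per kilobase in ctrl-OE, and 95.6% ± 0.210 in ctrl-KO. In MEIS1-OE its share was 75.0% ± 1.34, while MMP19 took 18.9% ± 1.36 instead of 1.67% ± 0.376 in ctrl-OE. MMP19 was thus the second most abundant of the 7 MMPs in MEIS1-OE. The absolute level of MMP2 in MEIS1-OE, at 128 CPM per kb, lay within the range of ctrl-OE. These lengths are those of 1 transcript per gene (GENCODE on GRCh37), and the isoforms present in hNSC were not measured.

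**Figure D1:**
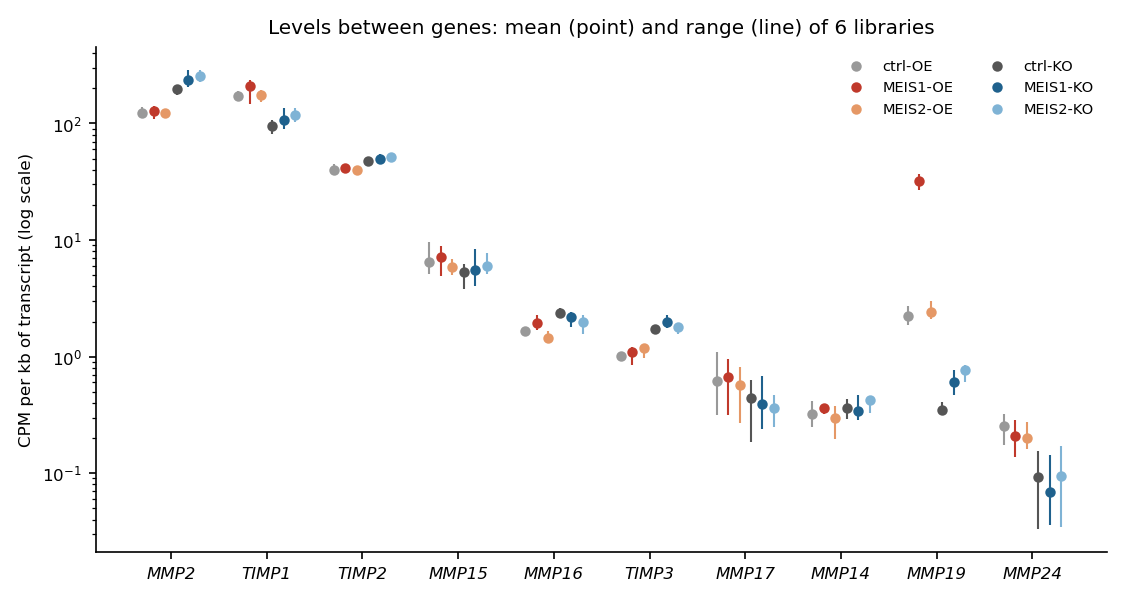
Level of each member in CPM per kilobase of transcript on a log axis, with genes ordered by their level in ctrl-KO. Points are means and lines the range of 6 libraries. MMP2, TIMP1 and TIMP2 stand above the other members in every group, and MMP19 in MEIS1-OE, at 32.3 CPM per kb, stands above MMP19 in every other group.

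**Figure D2:**
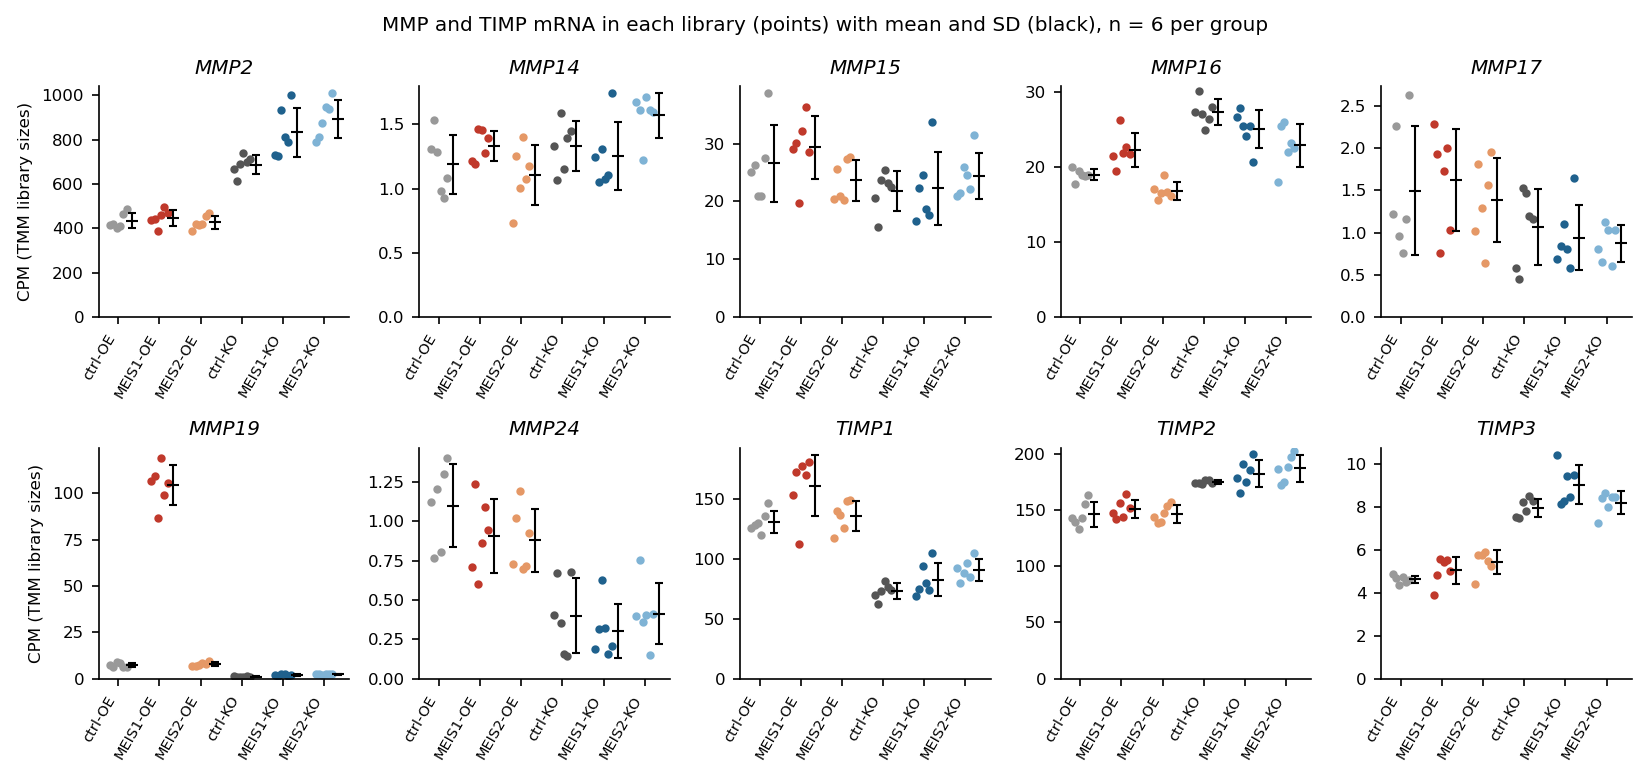
CPM of the 10 members in each of the 36 libraries (coloured points), with mean and SD per group in black (n = 6), on linear axes that start at 0 and differ between panels. The 6 MEIS1-OE libraries hold 86.6 to 119 CPM of MMP19, and all libraries of other groups lie under 10 CPM.

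MMP19 rose most of all members after MEIS1 overexpression. It encodes a secreted MMP that cuts basement membrane components, and it lies on the minus strand of chromosome 12 (GRCh37, chr12:56229217-56236750, with 9 exons in its canonical transcript). In ctrl-OE the lowest, median and highest library had 6.05, 6.83 and 8.81 CPM, and in MEIS1-OE 86.6, 106 and 119 CPM. All 6 MEIS1-OE libraries lay above all ctrl-OE libraries. The mean rose 14.5-fold, with a log2(fold change) of 3.86 (SE 0.09, adjusted p = 6.65e-29, edgeR quasi-likelihood test with Benjamini-Hochberg adjustment), on 1720 to 2615 counts per MEIS1-OE library against 129 to 212 counts per ctrl-OE library. In such bulk libraries, a change in the number of cells of a type and a change in mRNA per cell cannot be told apart. Of the cell type markers, SYT1 (neuron) was higher in MEIS1-OE by 0.26 (adjusted p = 0.00517, edgeR), PDGFRB (pericyte) was higher by 0.30 (adjusted p = 0.00548), and SOX1 (stem cell) was lower, with -0.31 (adjusted p = 0.0342). Other members of these lists had means on either side of ctrl-OE. In the mesenchymal list COL1A1 averaged 65.0 against 55.7 CPM and COL3A1 162 against 178 CPM. In the stem cell list VIM averaged 2276 against 1992 CPM, NES 1023 against 939 CPM and PAX6 19.1 against 20.7 CPM. The summed neuronal level was 36.65 to 46.85 CPM in MEIS1-OE against 32.39 to 36.63 CPM in ctrl-OE, without overlap, and the sums of the other marker lists overlapped between these groups. The neuronal sum was mostly SYT1, with 38.6 against 32.3 CPM. SNAP25 averaged 1.38 against 1.67 CPM, DCX 0.296 against 0.410 CPM and STMN2 0.111 against 0.0739 CPM. The part of these markers in the MEIS1-OE results of MMP19, TIMP1 and MMP16 was not tested.

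MEIS2 overexpression did not produce such a rise. The lowest, median and highest MEIS2-OE library had 6.82, 7.58 and 9.68 CPM of MMP19, which overlapped with ctrl-OE. The log2(fold change) was 0.12, with a 95% interval of -0.08 to 0.32 and an adjusted p of 0.935. The direct comparison of MEIS1-OE with MEIS2-OE gave a 13.3-fold higher mean in MEIS1-OE (adjusted p = 9.61e-29, edgeR), with all 6 libraries above.

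In the knockout arm, MMP19 was low but moved as well. The lowest, median and highest ctrl-KO library had 1.01, 1.11 and 1.33 CPM, against 1.52, 1.90 and 2.46 CPM in MEIS1-KO and 1.95, 2.57 and 2.72 CPM in MEIS2-KO. All 6 libraries of either knockout lay above all 6 ctrl-KO libraries. The log2(fold change) was 0.80 (SE 0.17, adjusted p = 0.00501, edgeR) in MEIS1-KO and 1.13 (SE 0.16, adjusted p = 1.04e-05) in MEIS2-KO, and the knockouts share the control libraries. These values rest on 18 to 25 counts per ctrl-KO library, 29 to 47 per MEIS1-KO library and 36 to 56 per MEIS2-KO library. Without replicate 4, the adjusted p for MEIS1-KO was 0.0524. Between MEIS1-KO and MEIS2-KO the log2 difference was -0.33 (adjusted p = 0.855, edgeR), with overlapping libraries.

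MMP19 was therefore higher in both MEIS1-OE and MEIS1-KO than in the respective control. The overexpression effect minus the knockout effect, referred to as the MEIS1 contrast, was 3.05 on the log2 scale (SE 0.20, adjusted p = 2.59e-14, edgeR). The MEIS2 contrast was -1.01 (SE 0.19, adjusted p = 0.000805), as the rise was found on the knockout side. The levels differed between the systems too, since every ctrl-OE library, at 6.05 CPM or more, had more MMP19 mRNA than every MEIS1-KO or MEIS2-KO library.

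The rise of MMP19 in MEIS1-OE was not shared by the genes around it. Within 100 kb, 6 genes were tested (GDF11, SARNP, ORMDL2, DNAJC14, WIBG and DGKA), and their log2(fold changes) in MEIS1-OE were between -0.03 and 0.18, none of which passed an adjusted p under 0.05. The nearest one, DNAJC14, lies 4.6 kb away and had 0.07. In MEIS2-KO, DGKA was higher by 0.30 (adjusted p = 0.00229, edgeR) and GDF11 was lower, with -0.13 (adjusted p = 0.0311), whereas in MEIS1-KO and MEIS2-OE none of the 6 passed. The pseudogene TMEM198B, which overlaps MMP19 on the opposite strand, was not analysed here.

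**Figure D3:**
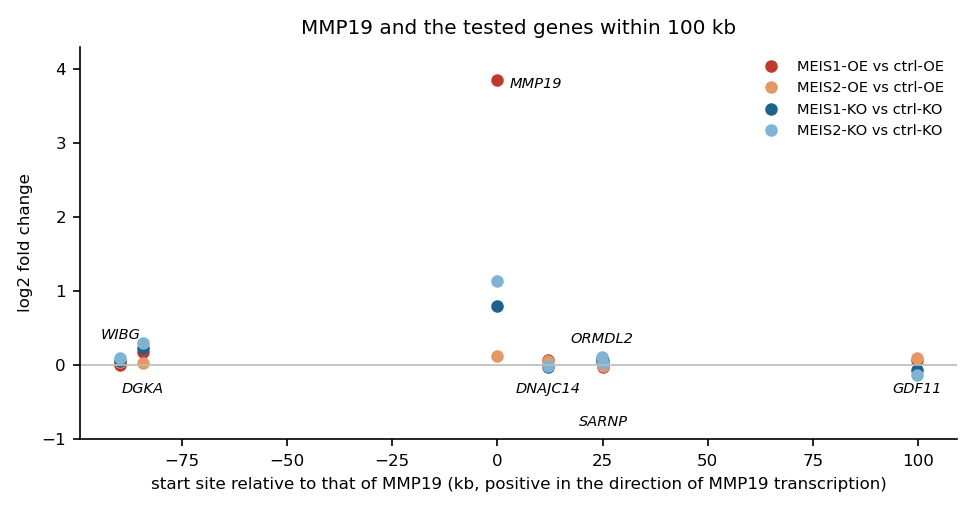
log2(fold change) of MMP19 and of the 6 tested genes within 100 kb, against the distance of each start site from that of MMP19 in kb, for each perturbation against its control (colours). MMP19 stands at 3.86 in MEIS1-OE, whereas the neighbours lie between -0.03 and 0.18 there. The points of SARNP and ORMDL2 nearly coincide.

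Across the 10 members, 3 passed an adjusted p under 0.05 in MEIS1-OE against ctrl-OE (MMP19, TIMP1 and MMP16, all higher), where 9.1% of all 19689 tested genes passed and 5.52% were higher. Among them, 1 member, MMP19, changed by more than 0.58 on the log2 scale, as did 2.84% of all genes, and had libraries that did not overlap with the control, as did 4.38% of all genes. In MEIS2-OE no member passed, where 1.35% of all genes did. Without adjustment, 2 members had a p under 0.05 by edgeR, TIMP3 and MMP16, with adjusted p of 0.279 and 0.507, and DESeq2 called 0 members. The share of all genes with an unadjusted p under 0.05 is not given here, so this count has no baseline. In MEIS1-KO 2 members passed, MMP19 and MMP2, both higher, against 1.46% of all genes (1.03% higher), and 1 of them, MMP19, had libraries that did not overlap, against 1.39%. In MEIS2-KO 4 members passed, against 10.0% of all genes. MMP19, MMP2 and TIMP1 were higher, as were 4.04% of all genes, and MMP16 was lower, as were 5.98%, and 2 members, MMP19 and MMP2, had libraries that did not overlap, against 6.44%. Between MEIS1-KO and MEIS2-KO no member passed, against 0.0152% of all genes, with 1 member, MMP19, at an unadjusted p under 0.05 by edgeR and 0 called by DESeq2. Here too the share of all genes without adjustment is not given. The median log2(fold change) of the 10 members was 0.14, -0.06, 0.05 and 0.13 in MEIS1-OE, MEIS2-OE, MEIS1-KO and MEIS2-KO, and that of all tested genes was within 0.02 of 0 in each.

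**Figure D4:**
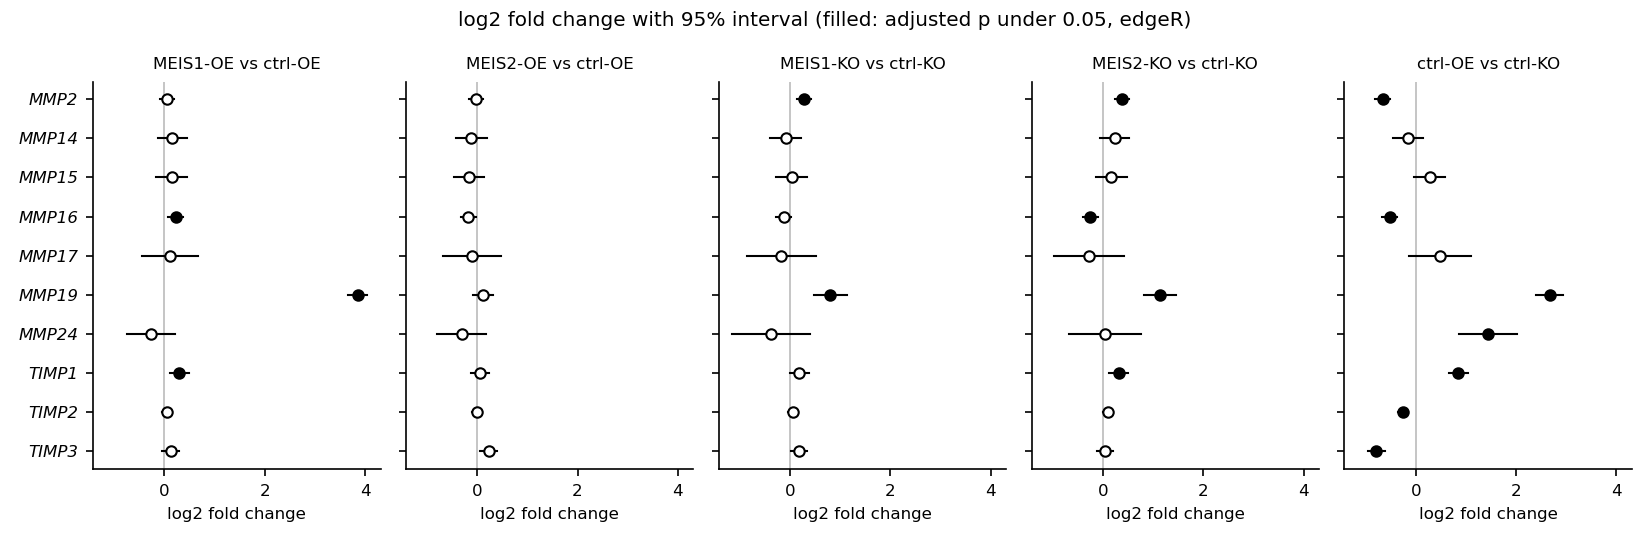
log2(fold change) of the 10 members in 5 comparisons, with 95% intervals as lines and filled points for an adjusted p under 0.05 (edgeR). MMP19 is the one member whose interval lies above 0.4 in MEIS1-OE, MEIS1-KO and MEIS2-KO, and ctrl-OE against ctrl-KO has 7 filled points.

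MMP2, or gelatinase A, is a secreted enzyme that cuts type IV collagen and denatured collagens. It lies on chromosome 16 (GRCh37, chr16:55423612-55540603, plus strand) and was the MMP with the most counts, at 7691 to 21115 per library. The lowest, median and highest library had 614, 695 and 741 CPM in ctrl-KO, 728, 801 and 1003 CPM in MEIS1-KO and 790, 905 and 1011 CPM in MEIS2-KO. The 6 MEIS2-KO libraries lay above all ctrl-KO libraries, and 4 of the 6 MEIS1-KO libraries did.

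MMP2 was higher by a log2(fold change) of 0.38 in MEIS2-KO (SE 0.07, adjusted p = 0.000421, edgeR), or 1.30-fold, and of 0.28 in MEIS1-KO (SE 0.07, adjusted p = 0.0309), or 1.21-fold. The overexpression groups overlapped with their control, with means of 434 CPM ± 33.7 in ctrl-OE, 449 ± 36.3 in MEIS1-OE and 428 ± 29.5 in MEIS2-OE (SD, n = 6). Their 95% intervals of the log2(fold change) were -0.09 to 0.19 and -0.16 to 0.12. The MEIS2 contrast of MMP2 passed with -0.40 (SE 0.10, adjusted p = 0.017, edgeR), while the MEIS1 contrast was -0.23 with an adjusted p of 0.278. The call in MEIS1-KO was lost when only the groups compared were fitted (adjusted p = 0.104), and without replicate 2, 3, 4, 5 or 6 (adjusted p of 0.0567 to 0.18). That of the MEIS2 contrast was lost without replicate 2, 4 or 5 (adjusted p of 0.0505 to 0.0895).

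Some marker genes of other cell types moved in the same groups. Among 7 markers of fibroblasts, pericytes or other mesenchymal cells, all tested, COL1A1 was higher by 0.82 in MEIS1-KO (adjusted p = 0.0408, edgeR) and by 1.06 in MEIS2-KO (adjusted p = 0.00114), and COL1A2 by 0.27 in MEIS2-KO (adjusted p = 0.039). The other members of that marker list did not pass in either knockout. Their summed level was 713 to 927 CPM in ctrl-KO, 812 to 1145 CPM in MEIS1-KO and 790 to 1028 CPM in MEIS2-KO, so the groups overlapped. All 3 endothelial markers were tested, and their sum was 147 to 160 CPM in ctrl-KO, 147 to 199 CPM in MEIS1-KO and 180 to 228 CPM in MEIS2-KO, which did not overlap with ctrl-KO. KDR was higher in MEIS2-KO by 0.42 (adjusted p = 0.00101) and CDH5 by 0.36 (adjusted p = 0.0113), and neither passed in MEIS1-KO. Of the stem cell markers, VIM was higher by 0.25 in MEIS1-KO (adjusted p = 0.04) and 0.33 in MEIS2-KO (adjusted p = 0.00114). PAX6 was lower, with -0.42 (adjusted p = 0.0178) and -0.52 (adjusted p = 0.000686), and in MEIS2-KO SOX1 and FABP7 were lower too, with -0.33 (adjusted p = 0.0159) and -0.36 (adjusted p = 0.0045). The neuronal marker DCX was lower in MEIS2-KO by a log2(fold change) of -0.997 (adjusted p = 0.0383), on 10 to 31 counts per ctrl-KO library against 4 to 14 per MEIS2-KO library. The group means of COL3A1 were 574 to 619 CPM, of PDGFRB 74.1 to 83.9 CPM and of LUM 5.61 to 6.92 CPM, while DCN had 1 to 8 counts per library in these 3 groups. The part of these marker changes in the knockout results of MMP2, MMP16, MMP19 and TIMP1 was not tested.

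The membrane-anchored MMPs among the members are the transmembrane enzymes MMP14, MMP15, MMP16 and MMP24 and the lipid-anchored MMP17. Of these, only MMP16 passed in a comparison of a perturbation with its control. MMP16, which cuts proMMP2 and is known from brain, had 17.8, 18.9 and 20.0 CPM as the lowest, median and highest value in ctrl-OE, 19.4, 21.8 and 26.2 CPM in MEIS1-OE and 15.6, 16.6 and 19.0 CPM in MEIS2-OE. MEIS1-OE and MEIS2-OE thus lay on different sides of the control, with 5 of 6 MEIS1-OE libraries above and 5 of 6 MEIS2-OE libraries below all ctrl-OE libraries.

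The log2(fold change) of MMP16 was 0.23 in MEIS1-OE (SE 0.07, adjusted p = 0.0437, edgeR), and the MEIS2-OE value of -0.18 did not pass (adjusted p = 0.507). In the direct comparison of MEIS1-OE with MEIS2-OE, 2 members passed, MMP19 and MMP16, against 7.75% of all genes, and MMP16 was higher in MEIS1-OE by 0.40 (SE 0.07, adjusted p = 0.000162, edgeR). For both, all 6 MEIS1-OE libraries lay above all MEIS2-OE libraries, while 4.09% of all genes had libraries that did not overlap. For MMP16, this difference passed under all 13 alternative settings, whereas the call of MEIS1-OE against ctrl-OE passed under 6 of them and was lost without replicate 3, 4, 5 or 6 (adjusted p up to 0.159), with RLE size factors (0.0628), with only the groups compared (0.0629) and with no filter on low counts.

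In the knockouts, MMP16 had 24.9, 27.1 and 30.0 CPM in ctrl-KO, 20.7, 25.5 and 27.9 CPM in MEIS1-KO and 18.0, 22.9 and 26.0 CPM in MEIS2-KO as the lowest, median and highest value. It was lower in MEIS2-KO with a log2(fold change) of -0.25 (SE 0.07, adjusted p = 0.0225, edgeR), and 4 of 6 libraries fell below the lowest ctrl-KO library. The call was lost without replicate 1, 4, 5 or 6, with an adjusted p up to 0.135. In MEIS1-KO the value was -0.12 (adjusted p = 0.559). The MEIS1 contrast had 2 members that passed, against 3.48% of all genes, and these were MMP19 and MMP16, the latter with 0.35 (SE 0.10, adjusted p = 0.0491), lost in 5 of 6 fits with a replicate number left out (adjusted p up to 0.172), with RLE size factors (0.0679) and with no filter on low counts. The MEIS2 contrast also had 2, against 2.57% of all genes, and there the value of MMP16 was 0.08 (adjusted p = 0.769).

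MMP14, the main activator of proMMP2, was scarce in these cells, with 15 to 38 counts per library and means between 1.11 and 1.57 CPM. Its highest mean was that of MEIS2-KO, where 5 of 6 libraries lay above all ctrl-KO libraries, but the log2(fold change) of 0.23 had a 95% interval of -0.06 to 0.53 and an adjusted p of 0.395. MMP15 was the most abundant membrane-type MMP per kilobase, and its means lay between 21.8 and 29.3 CPM. In the main fit, the largest deviation of MMP15 in a perturbation from its control was 0.17 in MEIS2-KO (95% interval -0.15 to 0.48, adjusted p = 0.57, edgeR). This order depended on the setting. Under the alternatives the log2(fold change) of MMP15 reached up to 0.29 in MEIS1-OE and up to 0.22 in MEIS2-KO, and it passed under none of them.

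MMP17 and MMP24 had wide spreads. The coefficient of variation within groups was 25.1% to 50.7% for MMP17, on 8 to 56 counts per library, and 22.8% to 58.8% for MMP24. The 95% intervals of MMP17 reached from -0.45 to 0.68 in MEIS1-OE and from -0.97 to 0.42 in MEIS2-KO, so that changes within these limits could not be told from the spread between libraries. MMP24 is known from neurons. It overlaps MMP24-AS1 on the opposite strand, which had 313 to 914 counts per library, and since the strand setting of the counting is not given in the sources used here, reads of the pair cannot be told apart.

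TIMP1 is a secreted inhibitor with weak action on membrane-type MMPs and lies on chromosome X (GRCh37, chrX:47441807-47446188, plus strand). The lowest, median and highest library had 120, 129 and 147 CPM in ctrl-OE, 113, 172 and 181 CPM in MEIS1-OE and 118, 138 and 149 CPM in MEIS2-OE. Of the MEIS1-OE libraries 5 lay above all ctrl-OE libraries, and replicate 3, with 113 CPM, lay below all of them.

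The log2(fold change) of TIMP1 in MEIS1-OE was 0.30 (SE 0.09, adjusted p = 0.0324, edgeR), and it was 0.06 in MEIS2-OE (adjusted p = 0.981). Between MEIS1-OE and MEIS2-OE the difference was 0.24 (adjusted p = 0.112), and 0.33 (adjusted p = 0.0148) without replicate 3. In the knockouts, the lowest, median and highest values were 62.4, 73.8 and 82.0 CPM in ctrl-KO, 68.8, 77.2 and 105 CPM in MEIS1-KO and 79.6, 90.1 and 105 CPM in MEIS2-KO. MEIS2-KO was higher by 0.32 (SE 0.09, adjusted p = 0.0267, edgeR), with 5 of 6 libraries above all ctrl-KO libraries, and MEIS1-KO had 0.18 (adjusted p = 0.474). The call in MEIS1-OE was lost without replicate 1, 2, 4 or 5 (adjusted p up to 0.23) and with only the groups compared (0.0626), and that in MEIS2-KO without replicate 1, 2, 4, 5 or 6 (up to 0.0895).

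TIMP1 lies within SYN1, a synaptic vesicle gene on the opposite strand that had 58 to 203 counts per library. SYN1 had a log2(fold change) of 0.30 in MEIS2-KO (adjusted p = 0.0272, edgeR) and of -0.05 in MEIS1-OE (adjusted p = 0.834). It thus moved with TIMP1 in MEIS2-KO and not in MEIS1-OE, and its mean level, at 4.38 to 7.71 CPM, lay far below that of TIMP1. Its part in the result was not tested.

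TIMP2, the inhibitor that also takes part in the activation of proMMP2, had a narrow spread, with a coefficient of variation of 0.942% in ctrl-KO and at most 7.52% elsewhere. It lies on chromosome 17 (GRCh37, chr17:76849059-76921469, minus strand). Its means were 146, 151 and 146 CPM in ctrl-OE, MEIS1-OE and MEIS2-OE, and 175, 182 and 187 CPM in ctrl-KO, MEIS1-KO and MEIS2-KO. No perturbation passed, and the 95% intervals of the log2(fold change) lay between -0.10 and 0.20 for all 4.

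TIMP3, which is bound to the matrix and also inhibits several ADAM and ADAMTS proteases, lies on chromosome 22 (GRCh37, chr22:33197691-33259028, plus strand) inside SYN3, which had 0 to 3 counts per library. Its means were 4.63, 5.05 and 5.43 CPM in ctrl-OE, MEIS1-OE and MEIS2-OE, and 7.97, 9.03 and 8.21 CPM in ctrl-KO, MEIS1-KO and MEIS2-KO. In MEIS2-OE 5 of 6 libraries lay above all ctrl-OE libraries, with a log2(fold change) of 0.23 and an adjusted p of 0.279 (edgeR). In MEIS1-KO 3 of 6 libraries lay above all ctrl-KO libraries, with 0.18 and an adjusted p of 0.332.

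More members passed between the controls than in any perturbation against its control. Of the 10 members, 7 passed in ctrl-OE against ctrl-KO, where 51.4% of all genes passed, and the same 7 had libraries that did not overlap, as did 31.8% of all genes. MMP19, MMP24 and TIMP1 were higher in ctrl-OE, as were 27.5% of all genes, and MMP2, MMP16, TIMP2 and TIMP3 were lower, as were 23.9%. These groups differ in the CRISPR system, the viruses and their amount, which cannot be told apart.

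The mean of MMP19 was 6.36-fold higher in ctrl-OE than in ctrl-KO (log2(fold change) of 2.67, SE 0.13, adjusted p = 3.71e-19, edgeR), and that of TIMP1 1.80-fold higher (0.84, SE 0.09, adjusted p = 8.68e-10). MMP24 had 18 to 30 counts per ctrl-OE library and 3 to 14 per ctrl-KO library, with a log2(fold change) of 1.44 (SE 0.29, adjusted p = 5.85e-05). The overlapping genes went the same way, with 0.81 for SYN1 (adjusted p = 2.87e-10) and 0.69 for MMP24-AS1 (adjusted p = 1.01e-06). MMP2 was lower in ctrl-OE with -0.66 (SE 0.07, adjusted p = 2.47e-10), TIMP3 with -0.78 (SE 0.08, adjusted p = 9.84e-11), MMP16 with -0.52 (adjusted p = 1.29e-07) and TIMP2 with -0.26 (adjusted p = 2.47e-05). MMP14, MMP15 and MMP17 did not pass.

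As a share of the 3 TIMPs per kilobase, TIMP1 made up 80.6% ± 0.803 in ctrl-OE and 65.6% ± 1.95 in ctrl-KO (SD, n = 6), and TIMP2 18.9% ± 0.785 and 33.2% ± 1.92. Marker genes moved between the controls as well. The sum of the 7 mesenchymal markers was 347 to 546 CPM in ctrl-OE and 713 to 927 CPM in ctrl-KO, with COL3A1, COL1A2 and LUM lower and COL1A1 higher in ctrl-OE, and the stem cell marker SOX2 averaged 114 and 300 CPM. The part of these differences in the levels of the family was not tested.

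The start sites of TIMP1, MMP24 and TIMP3 are shown because these genes went in different directions between the controls. The 250 bases before each start site are RefSeq sequence (GRCh38.p14) from a promoter table in which 5 of the 10 members were matched (MMP14, MMP15, MMP24, TIMP1 and TIMP3). Capitals mark GC boxes, the letters GGGCGG or, on the other strand, CCGCCC, to which factors of the SP family bind. The windows are chrX:47582186-47582435 for TIMP1, chr20:35226440-35226689 for MMP24 and chr22:32801455-32801704 for TIMP3, all on the plus strand.
TIMP1: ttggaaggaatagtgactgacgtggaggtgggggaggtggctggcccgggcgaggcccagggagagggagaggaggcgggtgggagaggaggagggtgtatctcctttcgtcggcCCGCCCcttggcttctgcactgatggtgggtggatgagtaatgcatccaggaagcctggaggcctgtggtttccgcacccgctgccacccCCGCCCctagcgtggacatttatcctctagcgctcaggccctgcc
MMP24: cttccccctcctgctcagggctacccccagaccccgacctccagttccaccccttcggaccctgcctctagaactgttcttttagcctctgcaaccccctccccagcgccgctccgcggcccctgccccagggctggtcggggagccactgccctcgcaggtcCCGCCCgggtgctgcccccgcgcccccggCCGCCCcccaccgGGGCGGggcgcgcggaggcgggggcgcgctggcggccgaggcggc
TIMP3: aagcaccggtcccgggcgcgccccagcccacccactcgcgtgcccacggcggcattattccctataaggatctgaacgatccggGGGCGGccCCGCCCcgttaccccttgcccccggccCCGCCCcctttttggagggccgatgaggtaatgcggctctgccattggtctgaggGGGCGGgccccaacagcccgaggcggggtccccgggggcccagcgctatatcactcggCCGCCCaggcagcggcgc

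TIMP1 held 2 GC boxes in this window, MMP24 3 and TIMP3 5, and a GC box was also present in MMP14 and MMP15, while 42.6% of 35116 promoters of the same length held one. The exact letters of the MEIS core TGACAG (13.0% of promoters) and of the AP-1 site TGACTCA (4.2% of promoters), both searched on either strand, were not found in any of the 5 windows. Variants of these sites were not searched, such as tgagtaa in the TIMP1 window, which differs from TGAGTCA by a single letter. The absence therefore covers the exact letters only. The windows of TIMP1, MMP24 and TIMP3 were chosen for the different directions of these genes between the controls. The part of GC boxes in these directions was not tested. The GC content was 64.8% for TIMP1, 77.6% for MMP24 and 72.4% for TIMP3.

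The remaining MMPs and TIMP4 were mostly at low levels, and 12 of 17 were tested. In MEIS1-OE 3 of the 12 were higher, against 5.52% of all genes, and none lower. TIMP4, the TIMP gene outside the members, rose from 1.09 to 2.41 CPM (log2(fold change) of 1.14, SE 0.19, adjusted p = 2.16e-05, edgeR), with libraries that did not overlap. MMP9, or gelatinase B, had 7 to 22 counts per library against 3 to 11 (1.39, SE 0.32, adjusted p = 0.00239), and the neutrophil collagenase MMP8 had 34 counts over 6 libraries against 3. In both knockouts the stromelysin MMP10 was the one of the 12 that passed, against 1.46% of all genes in MEIS1-KO and 10.0% in MEIS2-KO, with 0.85 in MEIS1-KO (SE 0.19, adjusted p = 0.0133) and 0.78 in MEIS2-KO (SE 0.19, adjusted p = 0.00727). In MEIS2-OE, where 1.35% of all genes passed, none did in the edgeR test. Without adjustment 1, MMP10, had a p under 0.05 by edgeR, a threshold for which the share of all genes is not given here. Between the controls 3 of the 12 were higher in ctrl-OE, against 27.5% of all genes, and 0 lower. The lipid-anchored MMP25 was 3.80-fold higher in ctrl-OE than in ctrl-KO (1.92, SE 0.21, adjusted p = 6.79e-10), and the others were MMP1 and MMP12, which had at most 4 counts in any library of these groups.

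All 20 activators and inhibitors outside the family were tested. In MEIS1-OE 4 were higher, against 5.52% of all genes, and 0 lower, among them SPOCK1, a proteoglycan that restrains MMP activation (0.94, SE 0.07, adjusted p = 9.37e-14, edgeR) and THBS2 (1.50, SE 0.23, adjusted p = 1.11e-05). In MEIS2-OE, where 1.35% of all genes passed, 4 were higher and 0 lower, led by SPOCK1 (0.61, SE 0.07, adjusted p = 3.51e-08). Both comparisons share the ctrl-OE libraries.

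In MEIS1-KO 5 of the 20 were higher, against 1.03% of all genes, and 0 lower. In MEIS2-KO 8 were higher, against 4.04% of all genes, and 1 was lower, against 5.98%. The urokinase gene PLAU was higher by 0.71 (adjusted p = 0.00114) and 0.86 (adjusted p = 2.4e-05) in MEIS1-KO and MEIS2-KO, and the hyaluronan receptor CD44 by 0.71 (adjusted p = 0.00104) and 0.94 (adjusted p = 5.08e-06). These knockouts share their control libraries. RECK, a membrane-anchored MMP inhibitor, averaged 21.4 to 25.4 CPM and did not pass in any of these 4 comparisons. Between the controls 5 were higher in ctrl-OE and 6 lower, against 27.5% and 23.9% of all genes, with FURIN, a convertase that activates membrane-type MMPs, at 1.38 (adjusted p = 7.48e-10), and with SPOCK1 at -1.72 (adjusted p = 2.79e-22), A2M at -1.59 (adjusted p = 1.61e-24) and THBS1 at -0.78 (adjusted p = 2.1e-11).

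Of 31 related ADAM and ADAMTS proteases, some of which are targets of TIMP3, 29 were tested. In MEIS1-OE 6 of the 29 passed, against 9.1% of all genes, with 3 higher and 3 lower. Of these, ADAMTS14, with 11 counts over 6 libraries against 1, was the one past 0.58, as were 2.84% of all genes. In MEIS2-OE none passed in the edgeR test, against 1.35% of all genes. Without adjustment 3 had a p under 0.05 by edgeR, a threshold for which the share of all genes is not given here. In MEIS1-KO 2 were higher and 1 lower, against 1.46% of all genes called, and in MEIS2-KO 3 were higher and 2 lower, against 10.0%. ADAMTS15 had 0.58 (SE 0.12, adjusted p = 0.00546, edgeR) and 0.76 (SE 0.12, adjusted p = 6e-05), and the procollagen peptidase ADAMTS3 was lower by 0.63 in MEIS2-KO, with a log2(fold change) of -0.63 (SE 0.08, adjusted p = 1.42e-06). Between the controls 7 were higher and 10 lower in ctrl-OE, against 51.4% of all genes called, with ADAMTS4 at 1.44 (adjusted p = 7.66e-14) and ADAM11 at 1.15 (adjusted p = 2.18e-07), and with ADAMTS12 at -1.55 (adjusted p = 1.39e-20), ADAMTS3 at -0.93 (adjusted p = 5.21e-13) and ADAM12 at -1.55 (adjusted p = 2.45e-06).

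The genes whose level followed each member most closely were ranked by Pearson's r of log2 CPM over the 36 libraries, among 12443 genes. These libraries share the difference between the systems, and r is given as a description. For MMP2 they were SULF2 (r = 0.992), SH3BP4 (0.984) and COL1A2 (0.981), and for MMP19 ICAM1 (0.987), LOC100507412 (0.983) and JPH4 (0.978). For TIMP1 they were ITGA3 (0.982), ATP6V1F (0.981) and BCAP31 (0.98), for TIMP2 ANXA6 (0.962), COL1A2 (0.947) and APP (0.945), and for TIMP3 CYFIP2 (0.953), LINC00617 (0.953) and LARGE (0.952). COL1A2 was thus among the closest for both MMP2 and TIMP2.

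Among the membrane-anchored members, the first genes were PPM1L for MMP16 (r = 0.929), FKBP8 for MMP15 (0.956), FBXL15 for MMP17 (0.893) and HLA-DMA for MMP24 (0.847). For MMP14, GRK5 came first with an r of 0.645, the lowest first value of the 10 members.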

How the data were processed

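Stranded poly-A libraries were read with 100 bases from either end. As deposited by the authors, the values are raw counts per gene symbol, not normalized. The alignment to hg19 used STAR 2.4.2a per the series text (the submitters' processing notes name STAR 2.7.0a and Trimmomatic 0.39 without a role) and counted with HTSeq 0.6.0; the gene annotation and strand setting are not given in the sources used here.

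Genes with at least 10 counts over all libraries (19689 of 28516) were tested with edgeR 4.0.16 (R 4.3.3): TMM, 1 fit of 6 groups, quasi-likelihood F tests, two-sided, Benjamini-Hochberg adjustment over all tested genes, prior count 0.125. The biological coefficient of variation was 0.0915. The procedure was tested on simulated data, for which no result is given here. Positions and transcript lengths are from GENCODE on GRCh37. The members and lists were chosen with earlier results of these data known. Of each other list, at most 5 genes per comparison are named (adjusted p under 0.05 and log2(fold change) beyond 0.58, smallest p first), and for each member the 3 genes with the highest r among those with a mean log2 CPM above 1. Further genes of the lists were named after their values were seen, and results for some list genes are not reported here. Alternatives were RLE size factors, filterByExpr or no filter, a prior count of 2, a replicate block, only the groups compared, DESeq2 1.42.0 and each replicate number left out.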

Additional observations from a re-analysis of the deposited data

Results flagged for a closer look

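Among the 60 groups of 6 values (10 members in 6 groups), 4 held a library that stood apart from the other 5 by Dixon's criterion, and chance alone flags about 1 in 20 groups. MMP14 was at 1.74 CPM in MEIS1-KO replicate 6, where the others had 1.05 to 1.31 CPM, and at 1.22 CPM in MEIS2-KO replicate 3, where the others had 1.59 to 1.71 CPM. MMP15 was at 38.8 CPM in ctrl-OE replicate 6 against 20.9 to 27.5 CPM in the others. MMP24 was at 0.627 CPM in MEIS1-KO replicate 3 against 0.157 to 0.321 CPM in the others. None of these members passed in the comparison of those knockouts or of the overexpressions with their control.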

How the results depend on the processing

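Of 90 pairs of member and comparison, 22 passed, and 14 of these passed under all 13 alternatives, among them MMP19 in MEIS1-OE, in MEIS2-KO, in both contrasts and between the controls, MMP2 in MEIS2-KO and all 7 members between the controls. Fitting only the groups compared left 1 member in MEIS1-OE and 1 in MEIS1-KO, and both RLE size factors and no filter left 1 in the MEIS1 contrast. With a replicate number left out, 1 to 2 members passed in MEIS1-OE, 0 to 2 in MEIS1-KO (0 without replicate 4), 2 to 4 in MEIS2-KO, 1 to 2 in the MEIS1 contrast and 1 to 2 in the MEIS2 contrast, where the call of MMP2 was lost without replicate 2, 4 or 5. The calls of MMP16 in MEIS1-OE (6 of 13) and MEIS2-KO (9 of 13), of TIMP1 in MEIS1-OE and MEIS2-KO (8 of 13 each) and of MMP2 in MEIS1-KO (7 of 13) were lost under the other alternatives, with adjusted p up to 0.159, 0.135, 0.23, 0.0895 and 0.18. The cause was not tested. Libraries with the same replicate number were not paired in the main fit. The correlation of their deviations averaged 0.118, with 50 of 90 pairs above 0.1. It averaged -0.0253 for libraries of other numbers in other groups, so same-numbered libraries deviated together to a small degree. With the replicate block the counts stayed at 3, 0, 2, 4 and 7 members in MEIS1-OE, MEIS2-OE, MEIS1-KO, MEIS2-KO and between the controls, and at 2 in either contrast. For 23 alternative values the sign differed where neither value passed. MMP14, MMP17 and MMP24 had at most 56 counts per library, and the part of depth in their spread was not tested.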
